A study of Mus musculus with 32 samples.

Results

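Cycling intermediate progenitors of the embryonic mouse cortex were picked out of single-cell RNA libraries by the transcripts they carried, and 5547 cells met the rule among 143705 cell barcodes kept. A barcode was kept with at least 1000 UMIs (unique molecular identifiers, each standing for 1 captured transcript) and at least 500 genes. It was a member with at least 2 UMIs of Eomes, at least 2 UMIs of Top2a and Mki67 together, at most 2 UMIs of Reln and no UMI of Gad2. The study dissected dorsal telencephalon, the tissue that forms the cortex, with its medial part removed, from C57BL/6J embryos at 4 ages: embryonic day 12.5 (E12.5), then E14.5, then E16.0, and last E17.5. At each age 4 wild-type (WT) embryos were set beside 4 Chd8+/- embryos of the same litters and sexes, and each embryo gave its own 10x 3′ library, 32 in all. The Chd8+/- embryos are heterozygous for a loss of Chd8, a chromatin remodeller of the CHD family whose heterozygous mutation in people is associated with autism. The heterozygosity is present in every cell of the embryo as labelled, so an effect in a progenitor can start in that cell or elsewhere. The 2 males and 2 females of each group are called M1, M2, F1 and F2.

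Intermediate progenitors are the basal, or transit-amplifying, progenitors of the cortex. Radial glia at the ventricle produce them, they turn on the T-box factor Eomes (Tbr2) and the proneural factor Neurog2, and they divide, mostly in the subventricular zone, to give pairs of glutamatergic neurons. They carry Notch ligands that signal to neighbouring radial glia. Deep-layer neurons are born before upper-layer neurons, so progenitors caught on successive days are at different points of that order.

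Members numbered 2061 at E12.5, 1130 at E14.5, 1692 at E16.0 and 664 at E17.5, and from 51 to 395 in a single library. The lowest number came from Chd8+/- F1 at E12.5. The summed UMIs of the members ranged from 349550 to 6133980 per library, and the median UMIs per member cell from 6076 to 13591. Libraries held between 2449 and 7388 kept barcodes. Pairs of libraries shared 7 to 66 barcode sequences (median 27 over 496 pairs), and 18 of the shared barcodes were members in both libraries. Members of Chd8+/- M1, F1 and F2 at E12.5 were shallow, with medians of 7963, 6076 and 8077 UMIs, while the 4 WT libraries of that stage had at least 10756. The mitochondrial share of members' UMIs at E12.5 was 0.876% ± 0.084 in WT and 1.05% ± 0.03 in Chd8+/- (SD, n = 4; exact permutation p = 0.029, the smallest that 4 against 4 can give), with no overlap, and its part in the genotype results of that stage was not tested. On the first principal component of E12.5, which held 53.3% of the variance, the shallow library F1 lay alone at a loading of 0.794, M1 and F2 were at 0.218 and 0.168, and the other 5 lay between -0.303 and -0.137. At E14.5 (42.8% of the variance) the male libraries of both genotypes lay at -0.426 to -0.276 and the female ones at 0.214 to 0.468. At E16.0 (43.2%) the males were at -0.429 to -0.250 and the females at 0.259 to 0.465. The main fits held no term for sex, and the part of this split in other results was not tested. On the first component of E17.5 (40.1% of the variance) the libraries WT M1, Chd8+/- M1 and Chd8+/- F1 stood apart, at 0.426 to 0.479 against -0.343 to -0.135 for the other 5. Several results are given with and without the 3 shallow libraries of E12.5 or these 3 of E17.5.

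The genes of the rule are described here without a test, since they chose the cells. Members had a median of 5 Eomes UMIs at E12.5 and E14.5, 4.5 at E16.0 and 4 at E17.5. Top2a, the topoisomerase of dividing cells, had medians of 5, 6, 7 and 6 UMIs over the same stages. Mki67, the gene of the Ki-67 antigen, had medians of 1, 1, 2 and 2. Of all members, 70.9% carried both cycling genes, 26.1% Top2a only and 3.05% Mki67 only. Just inside the limits, 1036 members had exactly 2 Eomes UMIs and 738 had exactly 2 UMIs of the cycling pair. Just outside, 2351 barcodes failed only by having 1 Eomes UMI, 2073 failed only by having 1 UMI of the cycling pair, 18 were left out by Reln alone and 347 by Gad2 alone. At E17.5 the 3 libraries that stood apart had Top2a at 1173, 1187 and 1172 CPM (counts scaled to a common library total of 1e6), and the other 5 lay between 554 and 655 CPM.

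Genes outside the rule fitted the name of the cells, but Neurog2, Neurod6 and Pax6 were each common in a neighbouring class as well. Neurog2 was found in 94.5% of members, in 89.0% of those with exactly 2 Eomes UMIs and in 73.4% of the barcodes with 1 Eomes UMI. It was also found in 49.6% of cycling radial glia (defined below). In neurons with at least 5 Neurod6 and 2 Neurod2 UMIs and no Eomes or Gad2 it was found in 26.5%, at a median of 6197 UMIs. Barcodes with at least 3 Gad2 UMIs had it in 11.8%, at a median of 4865. Neurod6, a gene of the excitatory neuron lineage, was found in 76.4% of members but in 16.9% of cycling radial glia, here the 20955 barcodes with no Eomes, at least 2 UMIs of Pax6 and Sox2 together and at least 2 of the cycling pair. It was also found in 20.3% of the barcodes with at least 3 Gad2 UMIs, which were shallower. Pax6, a factor of radial glia, was found in 82.3% of members and in 13.7% of those neurons. It was found in 89.7% of barcodes that met the rule but for having no Eomes UMI. Barcodes that met the rule but had no UMI of the cycling pair, the non-cycling intermediate progenitors, had a median of 6417 UMIs. Of them 85.5% had Neurog2, 81.1% Neurod6 and 63.8% Pax6. Over all kept barcodes the shares were 43.0%, 62.0% and 47.6%. The median depths were 10711 UMIs for members and 10559 for cycling radial glia. Markers of other cell types were rare over all stages: the gene with the most UMIs of each list was Dlx5 for interneurons (1.93% of members), Olig2 for oligodendrocyte precursors (2.43%), Cldn5 for endothelium (1.37%), Rgs5 for pericytes (1.05%), Col3a1 for meningeal fibroblasts (1.05%), Calb2 for Cajal-Retzius cells (1.39%), C1qb for microglia (0.379%) and Folr1 for choroid plexus (0.108%, with Cldn2 at 0). Globins were the exception, with Hbb-y, an embryonic globin, in 33.7% of members. The rule's limits on Gad2 and Reln leave out interneurons and Cajal-Retzius cells. Low values for the markers of those cells were thus partly set in advance. Some of the rare markers were found mostly at 1 stage. From E12.5 to E17.5 members had 4, 3, 14 and 133 UMIs of Olig1 and 5, 1, 11 and 48 of C1qa, but 201, 7, 19 and 25 of Cldn5 and 116, 2, 2 and 4 of Col3a1.

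Free RNA can add UMIs to a barcode. Among the 41186 neurons, with at least 5 Neurod6 and 2 Neurod2 UMIs and no Eomes or Gad2, 1.61% had at least 2 UMIs of the cycling pair. Their median was 6197 UMIs. Neurons that had also taken up Eomes RNA are not covered by this value. The value was 24.3% for the 22858 Eomes cells, the barcodes that met the Eomes, Reln and Gad2 conditions (median 7093 UMIs). In the neurons it was 4.83%, 1.42%, 1.81% and 0.785% from E12.5 to E17.5. The part of this background in the cycling share of each stage was not tested. Among 1258 barcodes with at least 3 UMIs of Gad2, a gene of inhibitory neurons, 4.45% had at least 2 Eomes UMIs, from 0% at E12.5 to 9.58% at E16.0. A simulation of doublets marked 11.2%, 11.4%, 10.8% and 4.04% of members from E12.5 to E17.5, against 3.59% of all kept barcodes on average over libraries. The share marked in a library was set in advance by its size, at 0.8% per 1000 kept barcodes. At E17.5 it lay between 1.96% and 3.44% of kept barcodes.

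The share of members among kept barcodes fell from E16.0 to E17.5, and the part of Eomes cells that was cycling dropped between E12.5 and E14.5. The WT libraries at E12.5 had 6.25%, 6.65%, 6.38% and 5.14% members among kept barcodes (M1, M2, F1, F2), and the Chd8+/- libraries 3.29%, 7.60%, 1.17% and 3.49%. The shallow Chd8+/- libraries were the 3 low ones. At E14.5 the WT values were 2.82%, 2.72%, 3.65% and 3.3%, and the Chd8+/- values 3.44%, 4.18%, 5.18% and 3.5%. At E16.0 WT had 4.11%, 3.62%, 2.83% and 5.21%, and Chd8+/- 5.38%, 4.20%, 3.21% and 4.13%. At E17.5 WT had 2.44%, 1.94%, 1.52% and 2.68%, and Chd8+/- 2.37%, 2.19%, 2.79% and 2.76%. The 8 libraries of E17.5 lay below the 8 of E16.0, and the genotypes overlapped at every stage.

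By stage the share of members was 5.0% ± 2.17 at E12.5, 3.60% ± 0.79 at E14.5, 4.09% ± 0.89 at E16.0 and 2.34% ± 0.44 at E17.5 (SD, n = 8 libraries). The stage tests, here and for genes below, took the 8 libraries of a stage as independent. Embryos of a stage shared litters, so the p-values of stage comparisons can be too small. The step from E16.0 to E17.5 was a fall of 1.75 percentage points (exact permutation test of 8 against 8 libraries, two-sided, p = 0.000155, adjusted over 3 steps 0.000466), and a fall of 1.87 points without the 3 E17.5 libraries that stood apart (exact permutation p = 0.00155). With each cell thinned to 3000 UMIs that step was -0.483 points (exact permutation p = 0.0375), and the mean shares were 1.18%, 1.10%, 1.67% and 1.19% from E12.5 to E17.5. The step from E12.5 to E14.5 was -1.4 points (exact permutation p = 0.109, adjusted 0.164). It was -2.81 points without the 3 shallow E12.5 libraries (exact permutation p = 0.00311), -1.94 points without Chd8+/- F1 alone (exact permutation p = 0.0152), and -0.075 points in thinned cells (exact permutation p = 0.712). The step from E14.5 to E16.0, 0.489 points, did not pass (exact permutation p = 0.260), but was 0.568 points in thinned cells (exact permutation p = 0.00155). Thinning left out shallower barcodes, 2325, 1467, 6252 and 5851 from E12.5 to E17.5, and all 2325 of E12.5 were from Chd8+/- libraries. The mean over libraries of the median UMIs per member was 10452, 11758, 9832 and 9904 from E12.5 to E17.5. A share of barcodes cannot tell fewer cells of this kind from more cells of other kinds.

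The cycling share of Eomes cells was 39.0% ± 5.6 at E12.5, 18.2% ± 3.7 at E14.5, 21.1% ± 2.1 at E16.0 and 19.7% ± 2.7 at E17.5 (SD, n = 8). At E12.5 the lowest library had 26.4%, the median was 40.4% and the highest had 44.5%. At E14.5 the lowest, median and highest were 13.2%, 18.5% and 24.7%, so that the 8 libraries of E12.5 lay above the 8 of E14.5. The drop of 20.8 percentage points passed (exact permutation p = 0.000155, adjusted over 3 steps 0.000466). In thinned cells the means were 20.2% at E12.5 and 8.83% at E14.5, a step of -11.4 points (exact permutation p = 0.000466). Later libraries ranged from 18.5% to 24.4% at E16.0 and from 15.1% to 22.3% at E17.5, and neither later step passed as fitted (2.93 points, adjusted exact permutation p = 0.108, and -1.39 points, adjusted exact permutation p = 0.267). In thinned cells the step from E14.5 to E16.0 was 2.36 points (unadjusted exact permutation p = 0.0468). The last step was -2.79 points without the 3 E17.5 libraries that stood apart (exact permutation p = 0.0559), -1.77 to -0.731 points without 1 library, and 0.728 points in thinned cells.

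Heterozygosity for Chd8 was not found to shift either share beyond the spread between libraries. Averaged over stages the Chd8+/- share of members was 0.149 percentage points below WT (permutation test within stage, two-sided, p = 0.754), and it was higher than WT in 11 of 16 pairs of the same stage, sex and number. At E14.5 it was 0.953 points above WT, in 4 of 4 pairs (exact permutation p = 0.0857, adjusted over 4 stages 0.286). Without the 3 shallow E12.5 libraries, which leaves a single Chd8+/- embryo at that stage, the averaged difference was 0.780 points in the other direction (permutation p = 0.0153). The cycling share of Eomes cells was 0.742 points higher in Chd8+/- (permutation p = 0.611), in 13 of 16 pairs. It was 1.76 points higher without those 3 libraries (permutation p = 0.0701), 0.142 to 1.65 points higher without 1 library, and 0.306 points lower under a stricter rule of 3 UMIs. The depth of the members moved with the genotype: their median UMIs were lower in Chd8+/- by 1296 averaged over stages (permutation p = 0.0214) and by 3308 at E12.5 (exact permutation p = 0.114). Its part in these shares was not tested beyond the thinned values, 0.139 points for the share of members and 0.738 points for the cycling share.

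**Figure D1:**
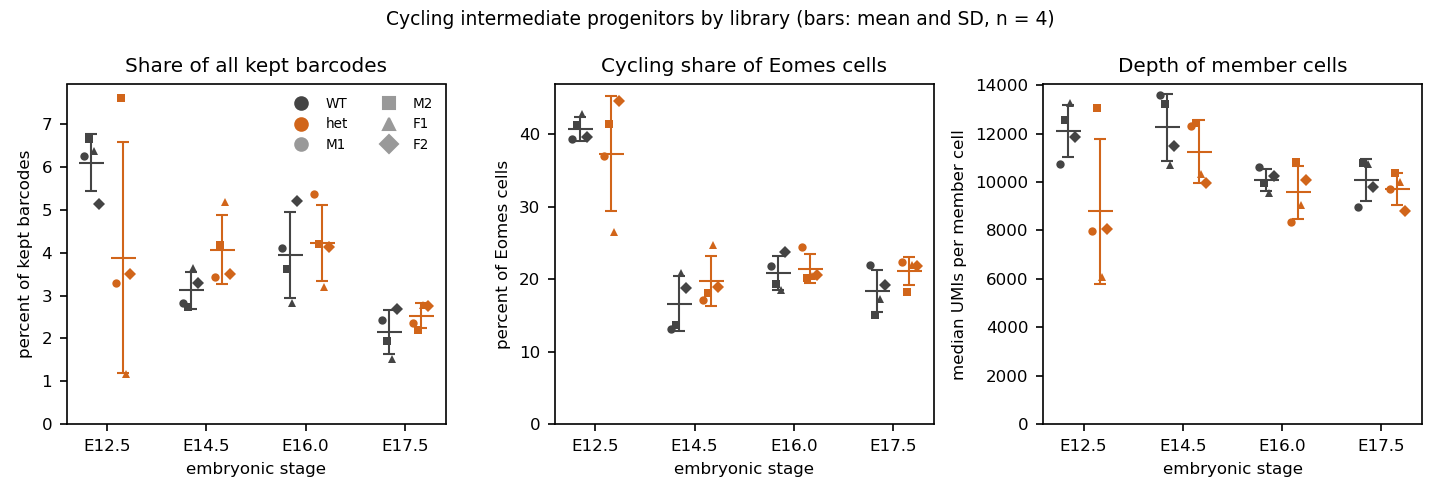
Share of kept barcodes that were members (left, percent), share of Eomes cells that were cycling (middle, percent) and median UMIs per member cell (right), by stage; each point is a library, marked M1, M2, F1 or F2, WT in grey and Chd8+/- in orange, with bars for the mean and SD of 4 libraries. The cycling share falls from 39.0% at E12.5 to 18.2% at E14.5, and 3 Chd8+/- libraries of E12.5 have few UMIs and a small share of members.

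Gene levels were compared on the summed counts of the members of each library, with 10426 genes tested in edgeR's quasi-likelihood fit and p-values adjusted over all of them by Benjamini-Hochberg; a gene is said to have risen or fallen with an adjusted p under 0.05. From E12.5 to E17.5, 2930 genes rose (28.1% of those tested) and 2637 fell (25.3%). From E12.5 to E14.5, 1524 rose (14.6%) and 1618 fell (15.5%). From E14.5 to E16.0, 546 rose (5.24%) and 593 fell (5.69%), and from E16.0 to E17.5, 1086 rose (10.4%) and 847 fell (8.12%). The split depends on the scaling: with total counts in place of trimmed-mean (TMM) scaling the median gene shifted by 0.153, 0.107, 0.109 and -0.05 on the log2 scale for these 4 comparisons. The counts were then 3588 up and 1885 down, 2157 and 1058, 1007 and 323, and 741 and 1375. In 1496 genes (14.3%) the 8 libraries of E17.5 did not overlap the 8 of E12.5.

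The genes that mark intermediate progenitors mostly fell as development went on. Of 15 tested genes of that identity list, 11 fell from E12.5 to E17.5, 2 rose and 2 did not pass, with a median log2 change of -1.02 against 0.03 over all genes tested (25.3% of all genes fell and 28.1% rose). Neurog2 was at 1008 ± 187 CPM at E12.5, 1112 ± 235 at E14.5, 1124 ± 113 at E16.0 and 696 ± 125 at E17.5 (SD, n = 8). Its libraries at E17.5 ranged from 504 to 905 CPM (median 668), below the 953 to 1276 CPM (median 1134) of E16.0, and the step passed with a log2 change of -0.61 (SE 0.11, edgeR adjusted p = 0.000171). Neurog1, its close relative, fell at every stage mean, 83.3, 58.8, 34.7 and 5.64 CPM, with a log2 change of -4.16 from the first to the last. Gadd45g, a growth-arrest gene of neurogenic progenitors, ranged from 1640 to 3548 CPM at E12.5 (median 2031) and from 249 to 530 CPM at E17.5 (median 376). Those ranges do not overlap, and the log2 change was -2.71 (SE 0.16, edgeR adjusted p = 3.52e-14). Hes6, an inhibitor of Hes1, fell by 1.47 and Btg2, an antiproliferative gene of neurogenic divisions, by 1.02 on the log2 scale. Insm1, a zinc-finger factor that promotes the formation of basal progenitors, rose from 197 ± 55 to 294 ± 36 CPM (log2 change 0.45, SE 0.14, edgeR adjusted p = 0.00659). That call was lost without the 3 E17.5 libraries that stood apart (0.37, adjusted p = 0.0938) and without the cells marked as doublets (0.31, adjusted p = 0.0541). Sstr2, a somatostatin receptor, had a log2 change of 0.26 (edgeR adjusted p = 0.0291) and lost its call without the marked doublets (0.11, adjusted p = 0.344) and in 8 of 32 fits that each left out 1 library (highest adjusted p = 0.108, without WT M2 of E17.5).

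Of 14 tested genes of the Notch signalling list, 8 fell, 2 rose and 4 did not pass, where 25.3% of all genes fell and 28.1% rose, and the list's median log2 change was -1.06; Dll1, Dll3 and Mfng are also on the identity list. Dll1, the Notch ligand of neurogenic progenitors, ranged from 157 to 255 CPM at E12.5 (median 201), from 52.3 to 96.7 at E14.5 (median 69.5), from 25.9 to 48.2 at E16.0 (median 44.8) and from 11.9 to 24.7 at E17.5 (median 19.2). No 2 adjacent stages overlapped, and the change from E12.5 to E17.5 was -3.59 on the log2 scale (SE 0.14, edgeR adjusted p = 7.29e-23). The Notch effectors Hes1 (158 ± 22 to 37.6 ± 22.6 CPM, log2 change -2.26), Hes5 (126 ± 22 to 60.5 ± 38.0 CPM, -1.26) and Hey1 (87.1 ± 12.7 to 14.4 ± 4.0 CPM, -2.74) fell as well. Numbl, an inhibitor of Notch, fell by 1.89 on the log2 scale. The receptor Notch1 rose from 35.4 ± 13.7 to 79.6 ± 19.2 CPM (log2 change 0.96, SE 0.16, edgeR adjusted p = 3.33e-06), and the ligand Jag1 rose by 1.32 from a level of 2.97 ± 2.05 CPM. Notch1 at E12.5 ranged from 8.58 to 47.4 CPM, below the range of 51.5 to 114 CPM at E17.5.

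**Figure D2:**
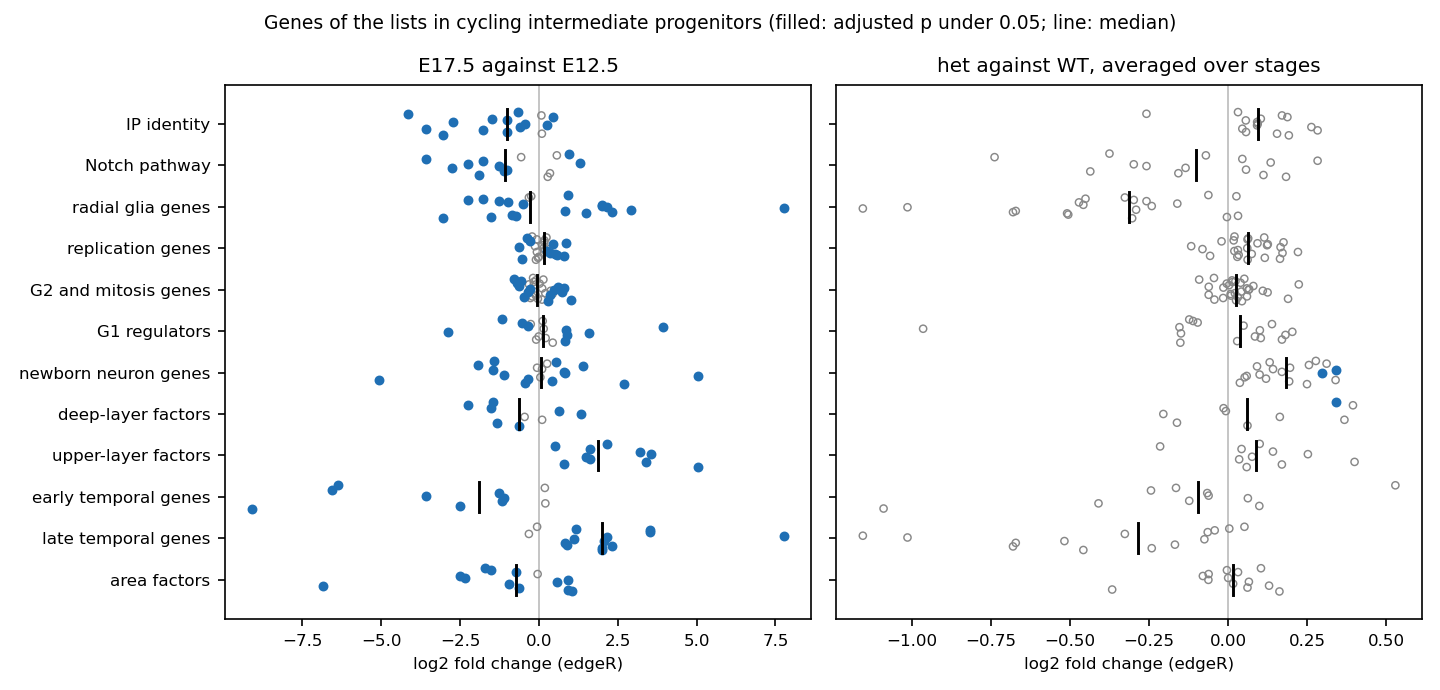
Log2 change of the genes of 12 lists in members, from E12.5 to E17.5 (left) and in Chd8+/- against WT averaged over stages (right); each point is a gene, filled with an adjusted p under 0.05, and the line is the list's median. The medians of the upper-layer and late temporal lists lie at 1.88 and 2.00 across stages, and only Tbr1 and Gap43 are filled on the right; points of genes with almost no UMIs at 1 stage, such as Tnc, Crabp2 and Lin28b, are fitted values and no bounds. Chd8+/- is marked het.

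The genes that accompany the order of cortical neurogenesis had large changes. All 10 tested upper-layer factors rose from E12.5 to E17.5 (median 1.88), and of 9 deep-layer factors 5 fell, 2 rose and 2 did not pass (median -0.62), beside 28.1% up and 25.3% down over all genes. Pou3f2 (Brn2), an upper-layer factor, ranged from 28.6 to 61.9 CPM at E12.5 (median 43.8), from 122 to 238 at E14.5 (median 184), from 309 to 449 at E16.0 (median 358) and from 390 to 866 at E17.5 (median 470). Each stage was above the one before but for an overlap between E16.0 and E17.5. Its change was 3.54 on the log2 scale (SE 0.18, edgeR adjusted p = 1.41e-15), or 3.16 without the 3 E17.5 libraries that stood apart, which held its 3 highest values of the stage. Pou3f1 rose mainly in the first step, from 7.69 ± 1.75 to 65.9 ± 17.2 CPM, and was at 74.4 ± 21.4 CPM at E17.5. Unc5d, a netrin receptor of multipolar cells in the subventricular zone, rose from 1.80 ± 1.12 to 20.2 ± 4.7, 33.3 ± 5.5 and 77.3 ± 24.7 CPM (log2 change 5.03, SE 0.21, edgeR adjusted p = 9.94e-22).

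The deep-layer factors did not fall at the same step. Tbr1, the factor of layer 6 neurons, fell mostly before E14.5, from 169 ± 25 to 83.0 ± 19.6 CPM, and was at 61.4 ± 11.95 CPM at E16.0 and 66.8 ± 15.2 at E17.5. Bcl11b (Ctip2), the factor of subcerebral neurons, was level from E12.5 to E14.5 (74.9 ± 8.6 and 74.6 ± 17.8 CPM) and fell to 31.2 ± 6.7 CPM at E16.0 (log2 change -1.36 in that step, SE 0.13, edgeR adjusted p = 1.56e-09). Its E17.5 libraries ranged from 10.1 to 42.0 CPM (median 13.4). Fezf2, upstream of Bcl11b, was at 188, 168, 129 and 72.7 CPM by stage means. Foxp2 rose by 1.32 on the log2 scale. Sox5, by 0.63, lost its call without the 3 E17.5 libraries that stood apart (0.26, adjusted p = 0.184).

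The temporal genes were split by direction. None of 10 tested early genes rose, 8 fell and 2 did not pass (median -1.89), and of 14 late genes 12 rose, none fell and 2 did not pass (median 2.00). Over all genes 28.1% rose and 25.3% fell. Hmga2, a chromatin protein of young neural stem cells, ranged from 44.1 to 132 CPM at E12.5 (median 91.0), from 7.77 to 21.7 at E14.5 and from 6.56 to 12.5 at E16.0, and was at most 1.99 CPM at E17.5. Crabp2, a retinoic acid binding protein, was at 140 ± 32 CPM at E12.5, 9.29 ± 3.01 at E14.5, 1.30 ± 0.58 at E16.0 and 0.586 ± 0.641 at E17.5. Igf2bp2, an RNA-binding protein of young progenitors, fell from 80.8 ± 17.7 to 7.55 ± 1.67 CPM (log2 change -3.58). Lin28b was not found in members at E17.5, where 3 UMIs over the stage would stand for 0.434 CPM. In the late list, the zinc-finger factor Zbtb20 ranged from 28.6 to 70.7 CPM at E12.5 (median 58.8), from 172 to 252 at E14.5 (median 215), from 323 to 427 at E16.0 (median 384) and from 523 to 966 at E17.5 (median 636). No 2 adjacent stages overlapped, and the change was 3.53 on the log2 scale (SE 0.11, edgeR adjusted p = 4.51e-26). Nfix, a nuclear factor I gene, rose mainly before E14.5, from 54.8 ± 19.7 to 382 ± 69 CPM, and then to 429 ± 60 and 681 ± 123 CPM. Nfib rose by 1.18, while Nfia had a log2 change of -0.06 (adjusted p over 0.05), and 0.39 (adjusted p = 0.0049) without the 3 shallow E12.5 libraries.

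**Figure D3:**
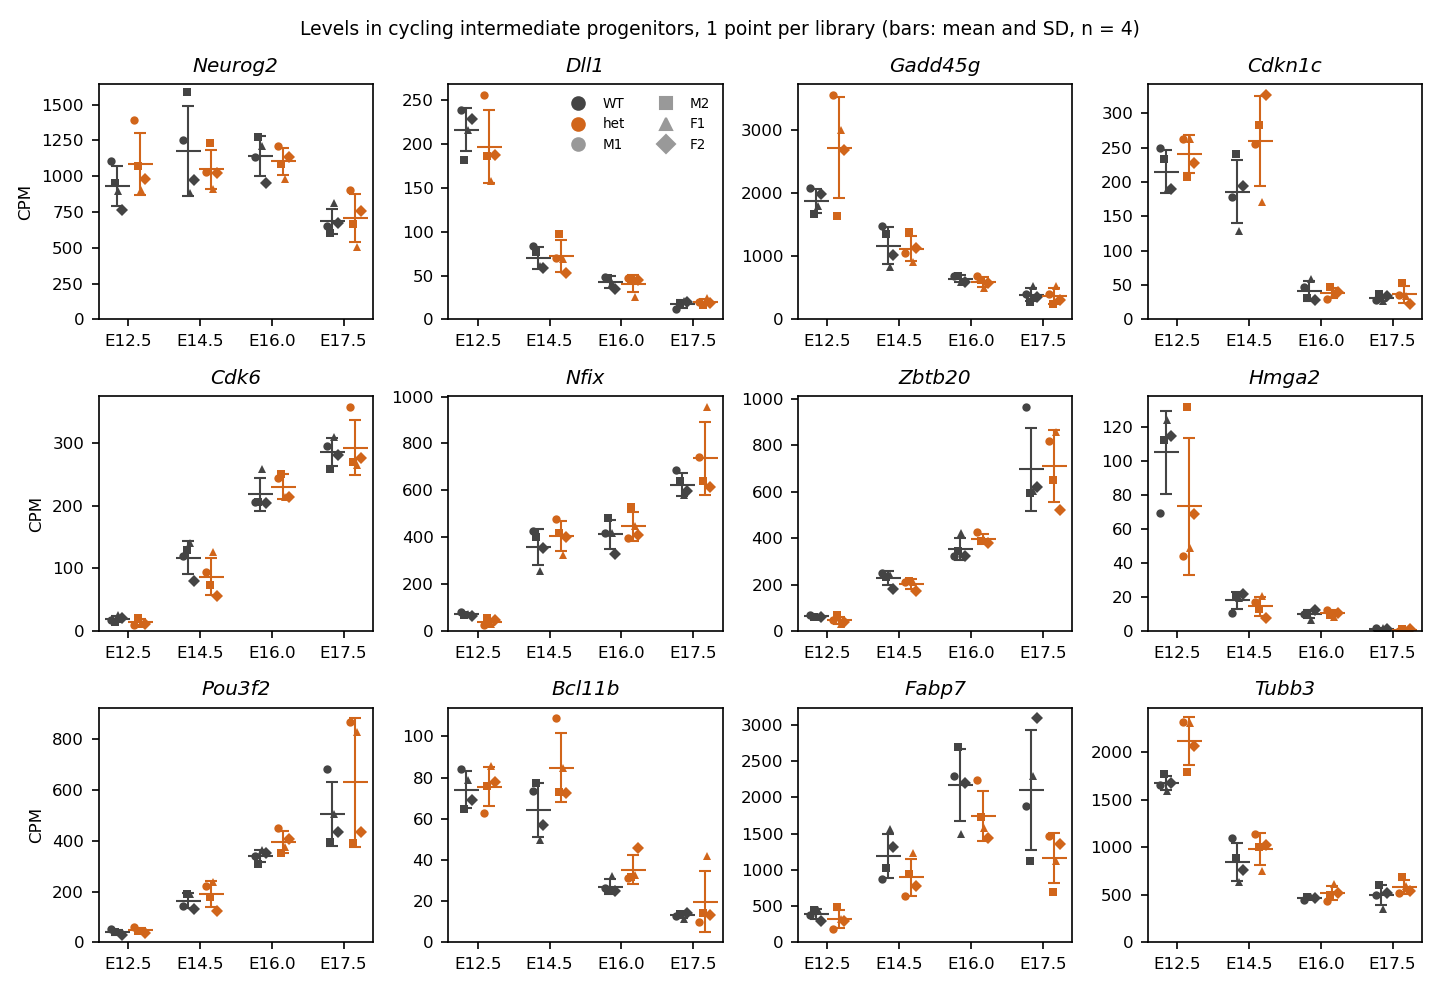
Levels in members (CPM) of Neurog2, Dll1, Gadd45g, Cdkn1c, Cdk6, Nfix, Zbtb20, Hmga2, Pou3f2, Bcl11b, Fabp7 and Tubb3 by stage; each point is a library, WT in grey and Chd8+/- in orange, with bars for the mean and SD of 4 libraries. Dll1 and Gadd45g decline at each stage, Zbtb20 climbs at each stage, and Cdkn1c drops between E14.5 and E16.0.

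Of 13 tested factors that pattern cortical areas, 8 fell, 4 rose and 1 did not pass (median -0.73), where 25.3% of all genes fell and 28.1% rose. Emx1, a homeobox factor of the dorsal telencephalon, was at 411 ± 78, 322 ± 50, 197 ± 27 and 135 ± 15 CPM from E12.5 to E17.5. Dmrt3, a factor of the medial cortex, was at 50.1 CPM at E12.5, 19.4 at E14.5, 5.92 at E16.0 and 0.425 at E17.5. The dissection removed the medial cortex at each stage, and differences in what was removed were not tested.

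Adjacent stages were compared as well. From E12.5 to E14.5 the genes with the largest changes included Crabp2, Ebf2, Nhlh2 and Lhx9, which fell, and Pou3f1, Nfix and Cdk6, which rose. Cdk6, a G1 kinase partner of D cyclins, rose again from E14.5 to E16.0 (log2 change 1.06) and was at 16.4 ± 5.3, 102 ± 31, 225 ± 22 and 289 ± 32 CPM by stage. Among the genes named for the interval from E14.5 to E16.0 the largest drop was that of Cdkn1c (p57), a cyclin-dependent kinase inhibitor that promotes cell-cycle exit. It ranged from 188 to 263 CPM at E12.5 (median 231), from 129 to 327 at E14.5 (median 218), from 28.03 to 59.0 at E16.0 (median 39.4) and from 22.6 to 52.8 at E17.5 (median 34.0). The first 2 stages overlap each other and lie above the last 2, and the step was -2.55 on the log2 scale (SE 0.16, edgeR adjusted p = 7.98e-12). Etv5, an ETS factor downstream of FGF signalling, rose in that interval from 17.8 ± 9.5 to 54.0 ± 12.8 CPM (log2 change 1.63, SE 0.22, edgeR adjusted p = 6.11e-06). From E16.0 to E17.5 Tfap2c (AP2γ), a regulator of basal progenitor number, fell from 110 ± 12 to 42.7 ± 13.2 CPM (log2 change -1.30, SE 0.11, edgeR adjusted p = 1.14e-10). Lpar1, a lysophosphatidic acid receptor, fell from 76.1 ± 8.9 to 24.04 ± 9.2 CPM (log2 change -1.64). Pcp4, a calmodulin-binding peptide, rose from 65.7 ± 6.3 to 182 ± 61 CPM (log2 change 1.57). Genes named for an interval were picked among those whose libraries did not overlap between its 2 stages. The libraries of E17.5 therefore lay below all those of E16.0 for Tfap2c and Lpar1, and above for Pcp4. Genes without overlap numbered 683 (6.55%), 238 (2.28%) and 349 (3.35%) of 10426 over the steps in order.

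The cell-cycle lists held genes that changed in both directions. Of 25 replication genes 7 rose, 4 fell and 14 did not pass from E12.5 to E17.5 (median 0.15), and of 30 genes of G2 and mitosis 7 rose, 7 fell and 16 did not pass (median -0.07), where 28.1% of all genes rose and 25.3% fell. Under total-count scaling the splits were 9 up and 2 down, and 12 up and 5 down. Without the 3 E17.5 libraries that stood apart they were 5 up and 4 down, and 4 up and 7 down. Ccnb1, the cyclin of mitotic entry, was at 749 ± 132, 602 ± 86, 599 ± 68 and 468 ± 100 CPM by stage (log2 change -0.80, SE 0.11, edgeR adjusted p = 6.03e-08). Cdc20 and Ube2c, which drive the anaphase-promoting complex, fell by 0.57 and 0.63 on the log2 scale. Cdk1, the kinase bound by Ccnb1, was at 536 ± 48 CPM at E12.5 and 551 ± 85 at E17.5 (log2 change -0.10, edgeR adjusted p = 0.372) and was higher in between, at 699 ± 72 and 775 ± 76 CPM. Kif11, the kinesin of the spindle, had 100 to 127 CPM in 5 libraries at E17.5 and 184, 204 and 225 CPM in the 3 that stood apart. Its log2 change of 0.49 (edgeR adjusted p = 0.00421) was 0.09 without those 3 (adjusted p = 0.610), and that of Cenpf, a kinetochore protein, went from 0.79 to 0.37 (adjusted p = 0.105). Anln, the anillin of the cytokinetic ring, kept its call without them (1.00 with, 0.71 without, adjusted p = 0.00927). Of replication genes Cdc6, a licensing factor, rose by 0.85 and Uhrf1, which carries DNA methylation through replication, by 0.51 on the log2 scale. The regulators of G1 were split, 5 up, 4 down and 7 not passing of 16 (median 0.14). Cdkn2c (p18), an inhibitor of Cdk4 and Cdk6, rose from 60.9 ± 8.2 to 116 ± 16, 160 ± 12 and 202 ± 69 CPM (log2 change 1.58), and Ccnd1, the D cyclin of radial glia, went from 97.3 ± 30.02 CPM at E12.5 to 48.8 ± 12.02 at E17.5 (log2 change -1.17).

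In single member cells, at least 3 UMIs over Cdc20, Ccnb1, Plk1 and Aurka, genes of late G2 and mitosis, were found in 86.7% at E12.5, 83.5% at E14.5, 76.2% at E16.0 and 68.7% at E17.5. Cells with none of those UMIs and at least 3 over Pcna, Mcm2, Mcm5 and Mcm6, genes of replication, made up 2.52%, 3.45%, 6.62% and 12.05%. These shares are descriptions of all members of a stage, chosen on Top2a and Mki67, and depth differs between stages as given above; the difference was not tested.

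The start regions of 4 of these genes show 2 letter motifs that many genes of G2 and mitosis share, TTTGAA, the core of the cell cycle genes homology region, and CCAAT, the box bound by NF-Y. The stretches below are the 120 bases before the start of each gene in RefSeq (build GRCm38.p6), 5′ to 3′ on the gene's strand, with both motifs in capitals wherever they occur on either strand (a motif on the opposite strand appears as its reverse complement). They lie at chr4:118437344-118437463 for Cdc20 and chr10:69352913-69353032 for Cdk1, both on the minus strand, and at chr19:37376262-37376381 for Kif11 and chr2:164769809-164769928 for Ube2c, both on the plus strand. Cdc20 and Ube2c fell, Cdk1 did not pass and Kif11 rose in the fit of all libraries, and these 4 were taken from promoters that hold both motifs. In a window of this length 7 of the 27 promoters of the list hold both (25.9%), against 1.5% of all promoters.
Cdc20: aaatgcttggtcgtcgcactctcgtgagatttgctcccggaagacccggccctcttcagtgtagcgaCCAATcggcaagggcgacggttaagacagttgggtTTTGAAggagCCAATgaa
Cdk1: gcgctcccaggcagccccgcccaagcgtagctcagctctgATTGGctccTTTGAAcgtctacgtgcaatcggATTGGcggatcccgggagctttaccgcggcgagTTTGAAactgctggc
Kif11: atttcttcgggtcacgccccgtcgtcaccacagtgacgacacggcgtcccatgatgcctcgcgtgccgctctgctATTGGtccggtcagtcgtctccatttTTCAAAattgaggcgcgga
Ube2c: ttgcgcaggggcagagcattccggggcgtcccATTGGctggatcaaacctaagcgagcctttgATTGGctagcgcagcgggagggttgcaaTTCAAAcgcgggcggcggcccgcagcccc

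Over 250 bases before to 50 bases after the start, 26 of the 30 genes of G2 and mitosis had a promoter in the table. TTTGAA was found in 20 of them (76.9%), CCAAT in 21 (80.8%) and both in 18 (69.2%). Over all 27025 genes in the table, counted in the same way, the shares were 20.2%, 41.1% and 7.97%. Of 19 replication genes matched, 2 held TTTGAA (10.5%) and 12 held CCAAT (63.2%). A match is a description of the letters and says nothing of binding in these cells.

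Genes of the radial glia list went both ways. Of 20 tested, 9 rose, 9 fell and 2 did not pass (median -0.28), against 28.1% up and 25.3% down over all genes, which also holds for the lists that follow; Fabp7, Slc1a3, Tnc, Hopx, Aldoc and Mt3 are also on the late temporal list. Fabp7, a lipid-binding protein of radial glia, rose from 359 ± 99 CPM at E12.5 to 1045 ± 305, 1960 ± 459 and 1632 ± 770 CPM, and its E17.5 libraries spread from 701 to 3095 CPM. Slc1a3 (GLAST), a glutamate transporter of radial glia, rose by 2.01. Id4, an inhibitor of proneural factors, fell from 580 ± 115 to 312 ± 89, 159 ± 32 and 79.9 ± 39.8 CPM (log2 change -3.05), and Vim, the vimentin gene, fell by 0.97 on the log2 scale. Newborn neuron genes were likewise split, 7 up, 7 down and 4 not passing of 18 (median 0.07). Tubb3, a neuronal tubulin, fell from 1898 ± 293 CPM to 914 ± 185, 494 ± 56 and 539 ± 97 CPM (log2 change -1.94), while Dcx, the doublecortin of migrating neurons, rose from 75.8 ± 10.1 to 217 ± 48 CPM (log2 change 1.4). Of 8 tested CHD family genes 6 rose and 1, Chd7, fell, and 3 rose and 1 fell without the E17.5 libraries that stood apart. Of 12 Polycomb genes 4 rose and 4 fell, and 2 rose and 5 fell without those libraries. Of 8 p53 targets 1, Mdm2, fell, and it did not pass without those libraries (log2 change -0.25, edgeR adjusted p = 0.145) or with totals in place of TMM scaling (-0.21, edgeR adjusted p = 0.159).

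Genes of the early response to dissociation or stress differed between libraries of E17.5. Egr1, an immediate early factor, was at 144, 125 and 123 CPM in the 3 libraries that stood apart (WT M1, Chd8+/- M1 and Chd8+/- F1), at 138 CPM in WT F1, and between 6.44 and 39.6 CPM in the other 4. Fos, another immediate early factor, was at 193, 60.8 and 97.9 CPM in those 3, at 84.6 CPM in WT F1, and between 18.3 and 41.7 CPM in the other 4. Of 16 stress genes 3 rose, 6 fell and 7 did not pass from E12.5 to E17.5 (median -0.24), and of all genes 28.1% rose and 25.3% fell. Egr1 rose by 2.26 on the log2 scale, and by 1.03 without the 3 libraries, when it no longer passed. The part of this response in the stage changes was not tested.

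Red-cell transcripts varied widely between libraries. The embryonic globin Hbb-y ranged from 9.33 to 2817 CPM over the E12.5 libraries (median 197) and was not found in members at E17.5. The adult globin Hbb-bs was at 67.1 ± 92.1 CPM at E12.5 and 257 ± 108 at E17.5. Of 5 erythroid markers 1 rose and 1 fell, and their part in other results was not tested.

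The members shared their stage changes with their non-cycling counterparts in some genes and not in others. The test was of the difference between the E12.5 to E17.5 changes of 2 classes in the same libraries. Non-cycling intermediate progenitors were the 15238 barcodes with the same Eomes, Reln and Gad2 limits and no UMI of Top2a or Mki67. Against them 1739 of 11379 genes rose more, or fell less, in members (15.3%) and 936 did the opposite (8.23%). Mpped1, a neuronal metallophosphoesterase gene, was at 15 ± 4.7 CPM in members and 10.7 CPM in non-cycling cells at E12.5, and at 147 ± 22 and 270 ± 43 CPM at E17.5. The rise was smaller in members (log2 difference -1.5, SE 0.15). Neurog2 went from 1008 to 696 CPM in members and from 849 to 1140 CPM in non-cycling cells (log2 difference -0.96, SE 0.10). Btbd17 had a log2 difference of -1.63 (SE 0.11). Stmn2 and Gap43, genes of growing axons, had log2 differences of 2.35 (SE 0.23) and 1.69 (SE 0.11). A positive difference can be a greater rise in members or a smaller fall. Of 16 identity genes 2 went up relative to the non-cycling cells, 6 went down and 8 did not pass. Of the 30 genes of G2 and mitosis 29 had a greater rise or smaller fall in members and 1 did not pass (median 1.85 against 0.02 over all genes). In members alone as many genes of that list rose as fell, as given above. Both classes were cut on Top2a and Mki67. Non-cycling cells were shallower, with mean median depths of 6572, 7117, 5804 and 5949 UMIs from E12.5 to E17.5. The part of either in the count of 29 was not tested.

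Against cycling radial glia, 1419 of 11566 genes had a greater rise or smaller fall in members (12.3%) and 1574 the opposite (13.6%). Of 18 newborn neuron genes 15 went down relative to radial glia and none up (median -1.21 against 0.008 over all genes). In members alone as many genes of that list rose as fell, as given above. Neurod6 was found in 10.8% of cycling radial glia at E12.5 and in 28.3% at E17.5. In members it was found in 66.6% and 85.7%. The part of neuronal RNA in the radial glia class in this list's difference was not tested. Of 15 identity genes 9 went down and 2 up, and of 14 Notch genes 8 went down and none up. Of 25 replication genes 23 went up and none down (median 0.55), and of 30 genes of G2 and mitosis none went up and 16 went down (median -0.22). Cdk6 went from 16.4 to 289 CPM in members and from 51.3 to 146 CPM in cycling radial glia (log2 difference 2.36, SE 0.14), and Nfix had a log2 difference of 1.15 (SE 0.07). Mpped1 was at 36.9 and 45.9 CPM in cycling radial glia (log2 difference 2.91, SE 0.12). Dll1 fell from 206 to 18.9 CPM in members and was at 21.7 and 21.2 CPM in cycling radial glia (log2 difference -3.41, SE 0.18). Gadd45g had 2295 and 380 CPM in members and 152 and 237 CPM in cycling radial glia (log2 difference -3.21, SE 0.17). Insm1 rose from 10.9 to 85.0 CPM in cycling radial glia (log2 difference -2.40, SE 0.14), against 197 to 294 CPM in members.

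Markers of other lineages, named next, were at higher levels in cycling radial glia, as cut here, at E17.5 than at E12.5. Olig2, a factor of oligodendrocyte precursors, went from 0.455 to 225 CPM in them, Pdgfra, the receptor of those precursors, from 0.129 to 21.2 CPM, and the interneuron factor Dlx2 from 4.61 to 66.6 CPM. In members Olig2 went from 2.05 to 14.7 CPM and Dlx2 from 1.4 to 1.95 CPM. Whether other cells entered that class, and their part in the differences for Insm1, Dll1 and Gadd45g, was not tested.

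**Figure D4:**
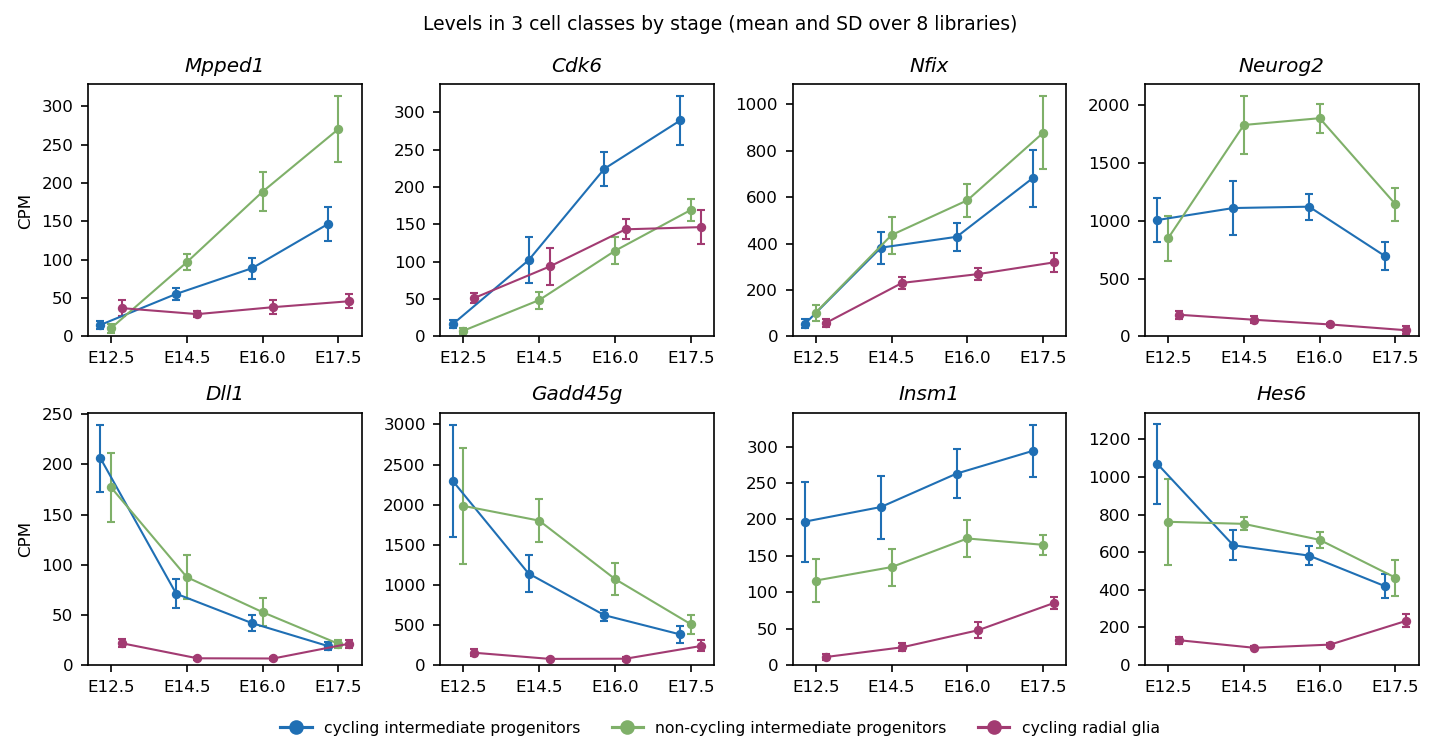
Levels (CPM) of Mpped1, Cdk6, Nfix, Neurog2, Dll1, Gadd45g, Insm1 and Hes6 by stage in members, non-cycling intermediate progenitors and cycling radial glia; points are means and bars SDs over 8 libraries. Neurog2 ends lower than it began in members, at 696 CPM, and higher in non-cycling cells, at 1140 CPM, and Insm1 climbs in cycling radial glia.

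The targeted gene was lower in the Chd8+/- members at every stage mean. Chd8 in WT members (M1, M2, F1, F2) was at 51.8, 47.5, 49.5 and 46.2 CPM at E12.5, 55.8, 40.8, 57.1 and 40.0 CPM at E14.5, 56.2, 48.1, 41.7 and 56.1 CPM at E16.0, and 61.6, 62.1, 48.8 and 66.9 CPM at E17.5. In Chd8+/- members it was at 41.6, 36.4, 31.5 and 46.8 CPM, 28.9, 37.1, 52.0 and 34.7 CPM, 45.3, 32.6, 38.5 and 34.3 CPM, and 45.6, 36.1, 52.7 and 48.9 CPM. It was lower in 14 of 16 pairs, and the genotypes overlapped at each stage. The averaged log2 change was -0.35 (SE 0.08, edgeR adjusted p = 0.0482), a call lost in 25 of 32 fits that each left out 1 library (highest adjusted p = 0.106, without WT F2 of E17.5). It did not pass without the 3 shallow E12.5 libraries (-0.41, edgeR adjusted p = 0.101) or without the 3 E17.5 libraries that stood apart (-0.38, edgeR adjusted p = 0.0601), nor without cells marked as doublets (-0.35, edgeR adjusted p = 0.0978). Chd8 passed under the stricter rule of 3 UMIs (edgeR adjusted p = 0.03625) and in DESeq2 (adjusted p = 0.0413). It also passed with a term shared by libraries of the same stage, sex and number (edgeR adjusted p = 0.00882). The counts are of 3′ ends, and reads of an allele deleted elsewhere in the gene would still be counted.

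For genotype, in the fit without a replicate term, 3 genes rose in members at E12.5 (0.0288% of 10426) and none fell, and at the other 3 stages no gene passed in edgeR (0%). With a term shared by libraries of the same stage, sex and number, more genes passed at E12.5, E14.5 and E17.5 and in the average. Those counts are given in the last paragraph. At an unadjusted p under 0.05 there were 962, 563, 233 and 556 genes at the 4 stages, and DESeq2 called 193, 0, 0 and 1. Averaged over stages 16 genes rose (0.153%) and 20 fell (0.192%), and no gene had a genotype effect that differed between stages (301 at an unadjusted p under 0.05). Fits that each left out 1 library called 13 to 211 genes in the average and 0 to 491 at E12.5. Without the 3 shallow E12.5 libraries 4 genes were called in the average, Zcwpw1, Spa17, Crlf2 and Sfxn1, all among the 36. At E12.5 the genes included Krt10 and Spa17, and without those libraries, leaving 4 WT embryos and 1 Chd8+/- embryo whose spread is taken from the other groups, only Kcne3 was called. Leaving out 1 library lost Krt10 and Spa17 at E12.5 in 5 and 6 of 32 fits (highest adjusted p = 0.182 for both).

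Zcwpw1, a reader of histone methylation known from meiosis, was higher in Chd8+/- in 16 of 16 pairs. WT members had 7.51, 6.08, 5.10 and 4.57 CPM at E12.5 and Chd8+/- members 7.63, 11.7, 8.58 and 8.46 CPM. At E14.5 the values were 13.8, 13.4, 7.23 and 14.1 CPM against 23.8, 26.8, 16.7 and 17.1 CPM. At E16.0 they were 14.4, 16.2, 14.9 and 15.4 CPM against 27.4, 23.8, 23.8 and 27.98 CPM, and at E17.5 33.8, 21.1, 20.1 and 18.3 CPM against 45.6, 32.2, 45.3 and 38.1 CPM. The genotypes did not overlap at E12.5, E14.5 and E16.0, and at E17.5 the WT M1 value lay above the lowest Chd8+/- value. The averaged log2 change was 0.78 (SE 0.10, edgeR adjusted p = 2.70e-05), and 0 of 32 fits without 1 library lost the call. Zcwpw1 and Crlf2 were picked with the whole series in view and are no independent support here.

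Spa17, a sperm surface protein with a regulatory-subunit fold, rose by 0.66 (SE 0.10, edgeR adjusted p = 0.000714), in 15 of 16 pairs. At E12.5 WT members had 13.8, 15.7, 16.1 and 18.3 CPM and Chd8+/- members 26.3, 26.9, 34.3 and 27.1 CPM. Those 8 values do not overlap. Crlf2, a cytokine receptor chain for TSLP, rose by 0.72 (SE 0.14, edgeR adjusted p = 0.0117), in 14 of 16 pairs. WT and Chd8+/- members overlapped at E12.5, with at most 8.23 CPM in a library, and did not overlap at the later stages; at E16.0 WT had 11.8, 8.61, 10.1 and 13.2 CPM and Chd8+/- 20.4, 27.5, 23.2 and 25.7 CPM. Crlf2 lost its call without Chd8+/- M2 of E12.5 (adjusted p = 0.120). Krt10, a keratin, rose by 0.40 (SE 0.07, edgeR adjusted p = 0.00263), in 16 of 16 pairs; at E17.5 WT had 63.6, 62.1, 57.4 and 57.8 CPM and Chd8+/- 81.0, 77.3, 70.8 and 73.9 CPM. The genotypes of Krt10 overlapped only at E14.5. Sfxn1, a mitochondrial serine transporter, was lower in Chd8+/- in 16 of 16 pairs, with 119, 129, 150 and 131 CPM in WT members at E12.5 against 77.2, 114, 45.8 and 74.5 CPM. The lowest Sfxn1 value was that of the shallow library F1, and the averaged log2 change was -0.48 (SE 0.08, edgeR adjusted p = 0.000975). Gsta4, a glutathione transferase, fell by 1.22 on the log2 scale (SE 0.24, edgeR adjusted p = 0.0112), with 19.6, 24.3, 26.1 and 46.9 CPM in WT members at E12.5 against 8.48, 18.3, 11.4 and 18.1 CPM. By the averaged fit Car14, a carbonic anhydrase, fell by 0.60, Dnmt3a, a DNA methyltransferase, by 0.49 and Ldha, a lactate dehydrogenase, by 0.39. Each of Gsta4, Car14, Dnmt3a and Ldha lost its call without WT F2 of E17.5 (adjusted p from 0.0536 to 0.0772). Without the shallow libraries none of Gsta4, Car14, Dnmt3a, Ldha and Krt10 passed, and their log2 changes there were -1.19, -0.53, -0.45, -0.28 and 0.31. Without the 3 E17.5 libraries that stood apart Gsta4 (-1.01, edgeR adjusted p = 0.139), Car14 (-0.56, edgeR adjusted p = 0.0733) and Ldha (-0.35, edgeR adjusted p = 0.0843) did not pass. Without cells marked as doublets Dnmt3a (edgeR adjusted p = 0.109) and Ldha (0.107) did not pass, and under the stricter rule of 3 UMIs Gsta4 (0.158), Car14 (0.229) and Dnmt3a (0.0967) did not.

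Of 15 identity genes, 14 Notch genes, 25 replication genes, 30 genes of G2 and mitosis, 10 early and 14 late temporal genes and 20 radial glia genes none passed in the averaged comparison, against 0.153% up and 0.192% down over all genes. The median log2 changes were 0.09, -0.10, 0.06, 0.02, -0.10, -0.28 and -0.32, against 0.002 over all genes. Of 18 newborn neuron genes 2 rose, Tbr1 (0.34, edgeR adjusted p = 0.0422) and Gap43 (0.30, edgeR adjusted p = 0.0337), and the list's median was 0.18. Without the shallow libraries neither passed, with log2 changes of 0.31 for Tbr1 and 0.33 for Gap43, and leaving out 1 library lost Tbr1 in 23 and Gap43 in 12 of 32 fits. Neither passed without cells marked as doublets (edgeR adjusted p = 0.164 and 0.107), under the stricter rule of 3 UMIs (0.121 and 0.210) or with totals in place of TMM scaling (0.0546 and 0.0907). Both passed without the E17.5 libraries that stood apart (edgeR adjusted p = 0.018 and 0.047) and in DESeq2 (adjusted p = 0.0204 and 0.0111). They also passed with a term shared by libraries of the same stage, sex and number (edgeR adjusted p = 0.00264 and 0.00723). The medians for radial glia, late temporal and newborn neuron genes were -0.27, -0.21 and 0.16 without the shallow libraries.

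**Figure D5:**
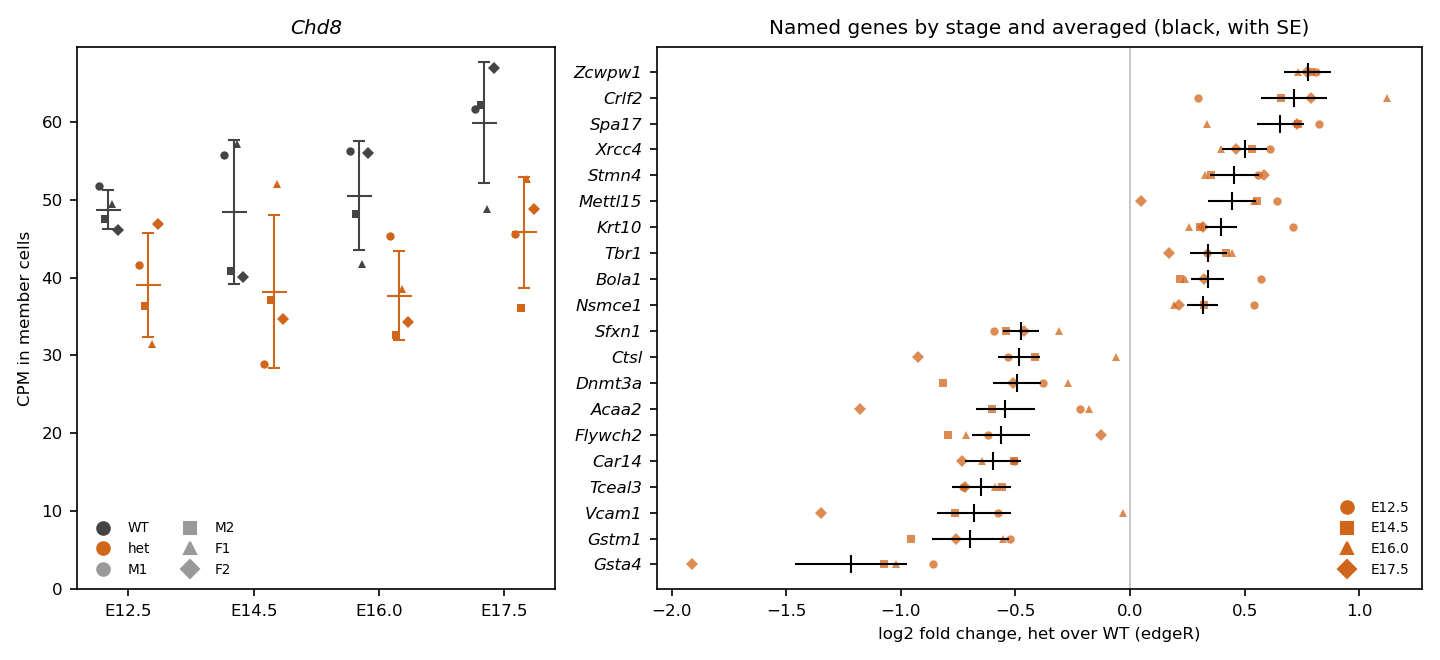
Chd8 in members by library (left, CPM; WT in grey, Chd8+/- in orange) and log2 change in Chd8+/- against WT of 20 named genes (right), at each stage and averaged over stages with its SE. Chd8 is lower in Chd8+/- in 14 of 16 pairs, and Zcwpw1 lies above 0 at each stage.

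The genotype effect was not found to differ between members and the neighbouring classes. No gene of 11379 passed for members against non-cycling intermediate progenitors (974 at an unadjusted p under 0.05, 29 called by DESeq2), and none of 11566 against cycling radial glia (873 and 8). Chd8 had a log2 difference of -0.15 (SE 0.08, edgeR adjusted p = 0.587) against the former and -0.05 (SE 0.08, edgeR adjusted p = 0.946) against the latter.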

How the data were processed

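Whole-number UMI counts per gene and cell barcode, as the authors deposited them for each of the 32 libraries, were the only unit used. Per the submitters' processing notes the genome build was mm10, and STAR 2.7.9a, STARsolo and Cell Ranger were named, without their role or order. Per the labels' protocols the libraries were 10x 3′ libraries of version 2 chemistry, sequenced on a HiSeq 2500. Files listed 32285 genes and 145082 barcodes, of which 143705 had at least 1000 UMIs and 500 genes.

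The members, gene lists and tests were chosen with earlier results of these data known. Genes were named by a rule: the genes of the selection, the listed genes, and per comparison up to 10 called genes in each direction by size (for stages, a mean of at least 50 CPM in the higher group and no overlap of libraries; for genotype, a mean log2 CPM of at least 3; for class differences, of at least 5). Lists overlap: Unc5d, Bhlhe22, Tbr1, Pax6, Lhx2, Emx2 and Ccnd1 stand on more than 1. Members' counts were summed per library and fitted in edgeR 4.0.16 (quasi-likelihood, TMM scaling, filterByExpr) on R 4.3.3, with 1 mean per stage and genotype; class differences used class by stage and class by genotype terms with libraries as blocks. CPM are a gene's counts over the members of a library, scaled to a total of 1e6. Adding counts per library keeps cells from counting as replicates, and deeper libraries with more members are more precise. The stage comparisons held no term for litter, so their p-values can be too small. Shares were compared by permutation over libraries (scipy 1.17.1, 100000 resamples for averages; exact otherwise, with a smallest p of 0.029 for 4 against 4). DESeq2 1.42.0 was an alternative on the same counts. Doublets were marked by simulation, and kept. The method was checked on simulated counts. A few named genes are not reported here.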

Additional observations from a re-analysis of the deposited data

Results flagged for a closer look

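Single libraries lay far from the others of their group in 17 of 232 groups checked, where chance gives about 1 in 20. For the cycling share of Eomes cells these were Chd8+/- M1 of E16.0, the highest of 4 at 24.4%, and Chd8+/- M2 of E17.5, the lowest of 4 at 18.2%. Among the genes of the genotype comparison, Zcwpw1 in WT F1 of E14.5 was the lowest of 4 at 7.23 CPM, and Sfxn1 was lowest in the same library at 72.3 CPM. Spa17 was highest of 4 in Chd8+/- F1 of E12.5 at 34.3 CPM and in WT M2 of E14.5 at 15.6 CPM. Crlf2 was highest and Gsta4 lowest in Chd8+/- F2 of E14.5, at 25.4 and 2.59 CPM. Over the 8 libraries of a stage, Nfix (956 CPM) and Bcl11b (42.0 CPM) were highest in Chd8+/- F1 of E17.5, a library that stood apart. Bcl11b was also highest in Chd8+/- F2 of E16.0 (45.6 CPM), Dmrt3 in Chd8+/- F2 of E17.5 (2.38 CPM) and Dcx in Chd8+/- M1 of E14.5 (189 CPM). Ccnb1 (1038 CPM) and Mpped1 (25.7 CPM) were highest in Chd8+/- F1 of E12.5, the shallowest library, and Tfap2c was lowest in Chd8+/- F2 of E12.5 (100.5 CPM). Crabp2 was listed at 0 CPM in WT F1 of E16.0.

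The change from E12.5 to E17.5 differed between members and non-cycling intermediate progenitors in 2675 genes by the interaction test. The log2 differences were -1.63 for Btbd17, -1.50 for Mpped1, -0.96 for Neurog2, 2.35 for Stmn2 and 1.69 for Gap43. Against cycling radial glia it differed in 2993 genes, with log2 differences of 2.91 for Mpped1, 2.36 for Cdk6, 1.26 for Neurog2, 1.15 for Nfix and 0.91 for Mcm6, and of -3.41 for Dll1, -3.21 for Gadd45g and -2.40 for Insm1. The 3 classes came from the same libraries and differ in depth and in the genes that chose them.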

How the results depend on the processing

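The share of members, Chd8+/- minus WT, was 0.139 points in cells thinned to 3000 UMIs, ranged from -0.459 to 0.0774 when 1 library was left out, and reversed to 0.780 without the 3 shallow E12.5 libraries. Its step from E12.5 to E14.5 was -2.81 points without those 3, and ranged from -1.94 to -1.03 without 1 library; the step from E14.5 to E16.0 was 0.568 in thinned cells. The cycling share of Eomes cells, Chd8+/- minus WT, was -0.306 points under a stricter rule (3 UMIs). In thinned cells its steps to E16.0 and to E17.5 were 2.36 and 0.728 points, and the former ranged from 2.21 to 3.86 without 1 library. Without the filter on low counts, genotype calls were 143 at E12.5, 14 at E14.5, 28 at E16.0, 55 at E17.5, 155 averaged, 57 for unequal effects over stages, 114 against non-cycling cells and 129 against cycling radial glia. The stricter rule gave 0 at E12.5, 1 at E17.5 and 21 averaged, and leaving out marked doublets gave 13 averaged. DESeq2 gave 193 at E12.5, 1 at E17.5, and 29 and 8 for the class differences. Without the shallow E12.5 libraries there were 1 at E12.5 and 4 averaged, and Nfia had a log2 stage change of 0.39. Without the 3 E17.5 libraries that stood apart there were 26 at E12.5, and 9 and 1 for the class differences. Leaving out 1 library gave 0 to 491 at E12.5, 0 to 1 at E14.5, 0 to 2 at E17.5, 13 to 211 averaged, 0 to 87 against non-cycling cells and 0 to 52 against cycling radial glia. The highest values at E12.5 (491), in the average (211) and for both class differences (87 and 52) came without Chd8+/- M2 of E12.5, the deep library of its group, and the lowest averaged count (13) without WT F2 of E17.5. The cause of these changes was not tested. Stage counts, up and down together, stayed within 1.5 times under all of these alternatives. Their split into up and down moved by more with total counts in place of TMM scaling, as given with those counts. These 2 sets of 3 libraries were chosen after seeing the data. Of 734 values for the main comparisons, 650 were marked as unchanged, and of 1654 values for named genes 1517 were. For a named gene the mark stands for the same side and the same call, and its size could differ. Ebf2, with a log2 change of -6.99 from E12.5 to E17.5, was at -10.01 without the 3 E17.5 libraries that stood apart. It was still marked as unchanged.

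With the replicate block, in which libraries of the same stage, sex and number share a term, genotype calls were 201 at E12.5, 7 at E14.5, 4 at E17.5 and 210 averaged. The labels say that litters were matched but not that a number marks a litter. Deviations from group means correlated within 15 of 16 such pairs above 0.1 (lowest -0.007, median 0.436, highest 0.604 over 6058 genes). In 13 of 16 pairs the WT library correlated better with its partner than with any other Chd8+/- library of the stage. Most libraries of the same number thus shared deviations. At E14.5 and E16.0 libraries of the same sex also lay together on the first principal component, across numbers and genotypes. The source of that sharing was not tested. The Chd8+/- library F1 of E12.5 had the fewest members, 51, and the lowest median UMIs per member, so genes at a few CPM rest on few UMIs there.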
